A study of Saccharomyces cerevisiae with 12 samples.

Results

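Low potassium was examined in budding yeast that already had little glucose: 3 libraries from cells in medium with 0.5% glucose and 1 mM potassium (K) were compared with 3 libraries from cells in medium with 0.5% glucose and 7 mM K. These 6 libraries, chosen by the medium named in their labels, are part of a series of 12. The other 6 came from 2% glucose with 1 or 7 mM K, and enter below where the effect of potassium at the 2 glucose levels is compared. All libraries were made from total RNA of Saccharomyces cerevisiae strain BY4742, labelled wild type, in defined medium in which KCl set the potassium level. BY4742 is a haploid laboratory strain of mating type alpha that lacks working HIS3, LEU2, LYS2 and URA3 genes, so every group carries those deletions, and the low glucose is shared by both groups compared here. The labels call the 3 libraries of each group independent biological replicates. They give neither the growth phase nor the time of harvest. Differences in growth between the media can therefore not be told apart from a direct effect of potassium.

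Potassium is the main cation inside the yeast cell. It enters through Trk1 and Trk2, driven by the membrane potential that the proton pump Pma1 builds up, and sodium that enters in its place is pumped out by the Ena family. When glucose is scarce, yeast cells make the enzymes that burn ethanol, acetate and fatty acids, and slow the synthesis of ribosomes. In the title of the series, potassium restriction is set beside caloric restriction as a way to extend chronological lifespan, which is the survival of cells that no longer divide.

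The 12 libraries held 5634205 to 7036345 counts at the 7127 yeast entries, and 6127 genes had enough counts to be tested. Another 39777 entries carry WBGene identifiers, took 33.97% to 41.6% of all counts and were left out. Each group held n = 3 libraries, and values are given as CPM, which are yeast counts scaled to a common library size by TMM, and log2 fold changes are 1 mM over 7 mM K from edgeR's quasi-likelihood test, with standard errors (SE). A gene was called higher or lower where its Benjamini-Hochberg adjusted p over all 6127 genes was under 0.05. Replicate 2 at 7 mM K differed from the others of its group: over genes, the correlation of log2 CPM was r = 0.882 and 0.891 with replicates 1 and 3, which correlated with each other at r = 0.987. The 3 libraries at 1 mM K correlated at r = 0.965 to 0.988 with each other, with replicate 3 the farther one. Counts of each list are therefore also given without 7 mM K replicate 2, as are fold changes of single genes at 0.5% glucose that moved over 1.5 times or lost or gained their call without it, and "without replicate 2" below always means that library. The genes deleted in the strain, LEU2, LYS2 and URA3, and the a-factor genes MFA1 and MFA2 had 0 counts in all 12 libraries. HIS3, of which this strain has only a part deleted, had 157, 133 and 91 counts in the 1 mM K libraries, against 74, 19 and 97 counts in the 7 mM K libraries.

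At 0.5% glucose, 1441 genes were higher at 1 mM K than at 7 mM K (23.5% of the 6127 genes tested) and 1525 were lower (24.9%). Of these, 929 were over 2-fold higher and 662 over 2-fold lower. Without replicate 2, 1824 of 6164 genes were higher (29.6%) and 1741 lower (28.2%), among them 1394 of the higher and 1393 of the lower genes. The peroxisomal acyl-CoA oxidase gene POX1 was the 1 gene called in opposite directions by the 2 fits. When the libraries were instead scaled to equal counts of the WBGene entries (called WBGene scaling below), the median of all genes shifted to -0.34 and 26.4% of the called genes were higher, against 48.6%. Changes are therefore relative to the typical yeast transcript. Genes were described in 42 lists by function, and the member counts of each list are to be read against these shares of all genes. At 0.5% glucose every library at 1 mM K lay above every library at 7 mM K in 1662 of the 6127 genes (27.1%). The reverse held in 1571 (25.6%). Groups without overlap, given for single genes below, are therefore common among all genes. For the genes named by rule for the highest and lowest changes, a lack of overlap was also a condition of being named.

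**Figure D1:**
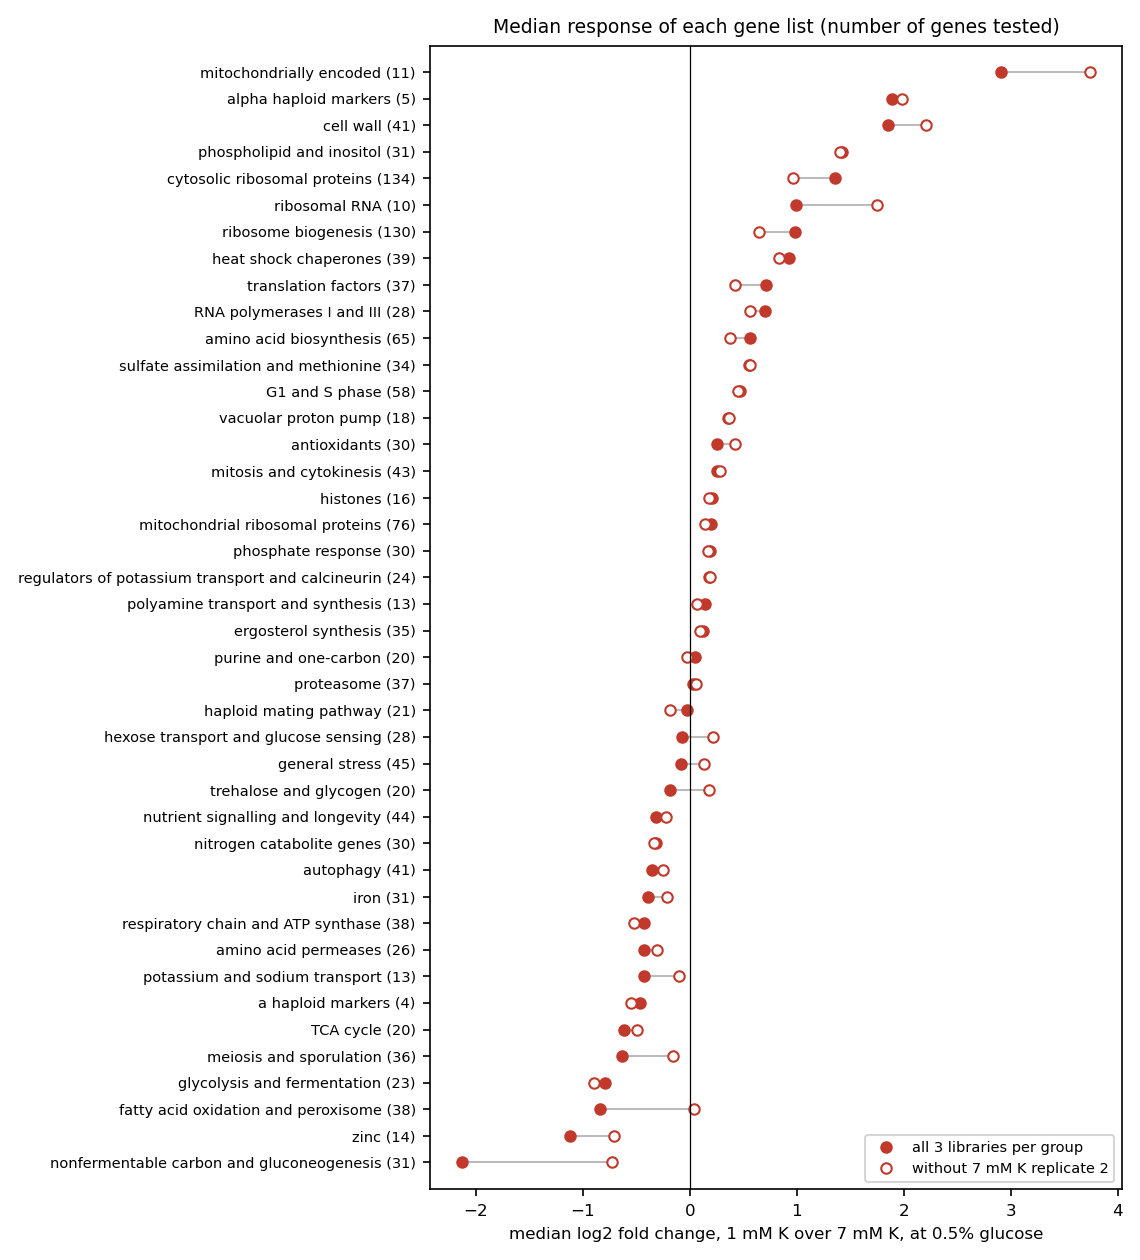
Median log2 fold change (x axis, 1 mM over 7 mM K at 0.5% glucose) of the tested genes of each list (y axis), with all 12 libraries (filled points) and without 7 mM K replicate 2 (open points). The cell wall list (1.86) and the phospholipid and inositol list (1.42) lay to the right in both fits, and the list for nonfermentable carbon and gluconeogenesis lay at -2.13 with all libraries and at -0.72 without that library.

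Genes for the cell wall showed some of the largest rises at low potassium. The wall of yeast is a layer of glucan, chitin and mannoproteins that is remodelled as the bud grows and split when the daughter cell leaves. Of 41 tested genes of the list, 27 were higher, 4 were lower and 10 did not pass the test (29 and 5 without replicate 2, 22 and 5 under WBGene scaling), with a median log2 fold change of 1.86, against -0.023 for all genes. In raw counts, the list took 4.55%, 4.53% and 5.52% of yeast counts in the 1 mM K libraries, against 1.78%, 1.79% and 1.68% in the 7 mM K libraries. In bulk RNA, more cells at a stage that uses a gene and more RNA per cell cannot be told apart, here and for every gene group below.

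The gene with the largest rise was SCW4, for a wall glucanase-like protein (chromosome VII, 1048798 to 1049958), with 794, 923 and 1905 CPM at 1 mM K, against 7.38, 16.4 and 5.71 CPM at 7 mM K. Its log2 fold change was 6.96 ± 0.50 (SE, edgeR adjusted p = 2.02e-06), and 7.54 without replicate 2. Every library at 1 mM K lay far above every library at 7 mM K. The related gene SCW10 had 707, 729.7 and 518 CPM at 1 mM K, against 15.6, 14.4 and 14.6 CPM at 7 mM K (log2 fold change 5.45 ± 0.20 SE). CWP1, for a mannoprotein anchored in the wall, had 405, 379 and 309 CPM at 1 mM K, against 5.88, 3.51 and 2.37 CPM at 7 mM K (log2 fold change 6.52 ± 0.29, SE, edgeR adjusted p = 1.03e-07). The libraries of each group were close to each other for CWP1, and the groups did not overlap.

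CIS3, for a wall protein of the PIR family, had 420.4, 435 and 362 CPM at 1 mM K, against 5.60, 4.68 and 4.73 CPM at 7 mM K (log2 fold change 6.33 ± 0.19, SE, edgeR adjusted p = 2.98e-09). GAS1, the main glucan-elongating enzyme gene, had 1605, 1612 and 1132 CPM at 1 mM K, against 50.0, 48.1 and 31.3 CPM at 7 mM K (log2 fold change 5.07 ± 0.28 SE). In both genes replicate 2 was within the range of its partners or close to it, and the log2 fold changes without it were 6.30 for CIS3 and 5.16 for GAS1. The abundant mannoprotein genes CCW12 (4.38) and CWP2 (4.05) and the chitin-glucan crosslinking enzyme genes CRH1 (2.95) and UTR2 (4.40) also rose on the log2 scale. FKS1, the main catalytic subunit gene of glucan synthase, had 986, 996 and 687 CPM at 1 mM K, against 285, 193 and 259 CPM at 7 mM K (log2 fold change 1.86 ± 0.22, SE, edgeR adjusted p = 4.96e-05), while its stress-induced partner GSC2 did not pass the test, at 0.15 on the log2 scale (edgeR adjusted p = 0.64). The wall genes that fell included PIR3 (-1.20) and CRR1, for a glucanase-like protein of the spore wall (-2.45). TOS6 and SRL1, for a wall protein and a mannoprotein, were outside the list and rose by log2 fold changes of 6.04 and 6.01.

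Part of the wall genes serve the split between mother and daughter cell. CTS1, the endochitinase gene that dissolves the septum (chromosome XII, 708448 to 710136), had 3486, 3269 and 3233 CPM at 1 mM K, against 135, 249 and 134 CPM at 7 mM K. Its log2 fold change was 4.27 ± 0.30 (SE, edgeR adjusted p = 1.58e-06). Within the 7 mM K group replicate 2 was the highest library, and still lay far below the lowest library at 1 mM K. DSE2, for a daughter-specific glucanase-like protein, had 1121, 1079 and 722 CPM at 1 mM K, against 20.1, 63.1 and 30.2 CPM at 7 mM K (log2 fold change 4.69 ± 0.40, SE, edgeR adjusted p = 6.57e-06). DSE1, for a daughter-specific protein, had 585, 579 and 486 CPM at 1 mM K, against 30.6, 65.7 and 36.9 CPM at 7 mM K (log2 fold change 3.64 ± 0.28, SE, edgeR adjusted p = 3.24e-06). DSE4, for a daughter-specific glucanase, rose by 1.70 and EGT2 by 3.33 on the log2 scale. Without replicate 2, DSE2, DSE4 and EGT2 rose by 5.28, 2.50 and 4.26.

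**Figure D2:**
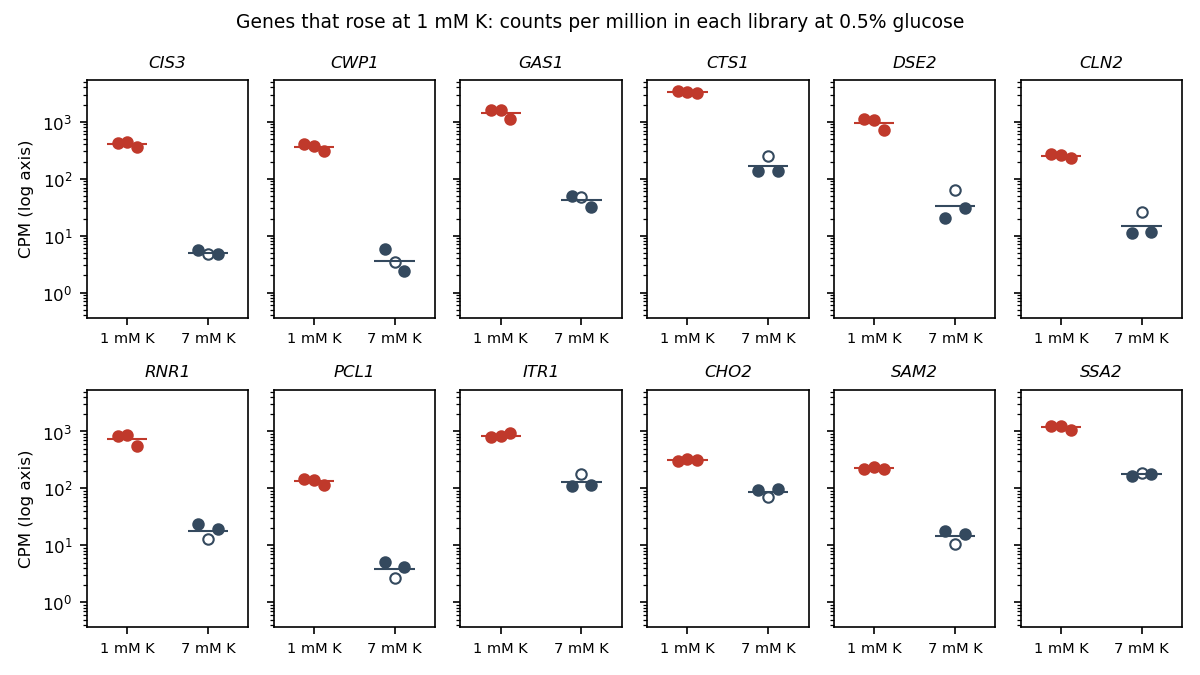
Expression (y axis, CPM on a log scale) of genes that were higher at 1 mM K (x axis, genes), with 1 point for each of the 3 libraries at 1 mM K (left) and the 3 libraries at 7 mM K (right) of each gene. Bars mark geometric means and open points 7 mM K replicate 2, and the groups do not overlap for any of the genes shown.

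Among genes of the start of the cell cycle, more rose than fell. Cyclins of the G1 phase and the factors SBF and MBF switch on the enzymes of DNA synthesis when a cell commits to divide. Of 58 tested genes of the G1 and S phase list, 26 were higher and 8 lower (28 and 10 without replicate 2, 17 and 9 under WBGene scaling), with a median log2 fold change of 0.47. RNR1, the large subunit gene of ribonucleotide reductase, which makes the building blocks of DNA (chromosome V, 298950 to 301616), had 835, 864 and 561 CPM at 1 mM K, against 24.1, 12.9 and 19.2 CPM at 7 mM K. Its log2 fold change was 5.32 ± 0.37 (SE, edgeR adjusted p = 1.54e-06). PCL1, for a G1 cyclin that works with the kinase Pho85, had 148, 142 and 117 CPM at 1 mM K, against 5.06, 2.73 and 4.18 CPM at 7 mM K (log2 fold change 5.06 ± 0.30, SE, edgeR adjusted p = 6.44e-07). For both genes all libraries at 1 mM K lay far above all libraries at 7 mM K.

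HO, for the mating-type endonuclease, whose transcription needs SBF, had 388, 378 and 272 CPM at 1 mM K, against 8.88, 8.19 and 9.61 CPM at 7 mM K (log2 fold change 5.28 ± 0.33, SE, edgeR adjusted p = 9.46e-07). The G1 cyclin genes CLN1 and CLN2 rose by 3.14 ± 0.21 and 3.99 ± 0.31 (SE, n = 3 each) on the log2 scale. MCD1, for the cohesin subunit that holds sister chromatids together, had 192, 202 and 137 CPM at 1 mM K, against 7.52, 3.90 and 9.61 CPM at 7 mM K (log2 fold change 4.63 ± 0.31, SE, edgeR adjusted p = 1.33e-06), and TOS4, for a forkhead-domain factor, rose by 2.74. Members that fell included RFC1, for the large subunit of the clamp loader (-1.53 ± 0.13 SE), and RNR3, for the damage-induced subunit of ribonucleotide reductase (-1.64 ± 0.21 SE). RNR2 and RNR4, also of ribonucleotide reductase, were called lower too, so the genes of this enzyme did not all rise with RNR1. MBP1, for a subunit of MBF, POL2, MCM4 and MCM7 were the remaining members called lower. Histone genes, which are expressed in S phase, had 5 of 16 members higher and 1 lower (7 and 3 without replicate 2), with a median of 0.21 that turned to -0.099 under WBGene scaling. HHF2, for histone H4, had 301, 316 and 284 CPM at 1 mM K, against 89.5, 49.9 and 99.6 CPM at 7 mM K (log2 fold change 1.91 ± 0.22, SE, edgeR adjusted p = 4.59e-05), although reads of the histone genes can be shared with their near-identical copies. HIR3, for a repressor of histone genes, was the member that fell (-0.84).

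Sites were searched on both strands in the 500 bases before each start codon, in build R64 (RefSeq). A match is a run of letters and no evidence of binding. The MBF site ACGCGT was found before 5.43% of all 5987 protein-coding genes, before 30 of the 58 genes of this list, before 16 of its 26 higher genes and before 2 of its 8 lower genes. The SBF site CGCGAAA was found before 5.83% of all genes, 12 of the 58 genes of this list, 9 of the 26 higher genes and 0 of the 8 lower genes. Of the 24 members not called, 12 had the MBF site (50.0%, against 61.5% of the higher genes) and 3 the SBF site. Many genes of the list are known to be driven by these factors, so its own high share is not independent of how it was chosen. The same limit holds for the other lists searched for sites below. The 2 stretches below are from the gene with the largest rise among those with an MBF site and from PCL1, the G1 cyclin gene with SBF sites and the largest rise, with the site or its complement in capitals, 5′ to 3′ on the plus strand. RNR1 holds 3 of its 4 matches in chrV:298505-298654, and PCL1 holds both of its matches in chrXIV:87527-87676.
RNR1: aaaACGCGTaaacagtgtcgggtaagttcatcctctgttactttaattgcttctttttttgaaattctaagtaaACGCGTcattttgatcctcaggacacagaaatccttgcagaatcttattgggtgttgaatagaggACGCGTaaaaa
PCL1: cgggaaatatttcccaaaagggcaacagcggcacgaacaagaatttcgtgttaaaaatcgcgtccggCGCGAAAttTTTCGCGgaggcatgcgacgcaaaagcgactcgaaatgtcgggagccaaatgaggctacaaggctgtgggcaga
In PCL1 the pair of sites face each other, 2 bases apart.

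Genes of mitosis and cytokinesis moved in both directions, with 32.6% higher and 30.2% lower, against 23.5% and 24.9% of all genes tested. Of 43 tested members, 14 were higher and 13 lower (19 and 13 without replicate 2), with a median of 0.25 that turned to -0.032 under WBGene scaling and to -0.073 without 1 mM K replicate 3. Beside CTS1, DSE1 and DSE2, which are shared with the wall list, AMN1, for a protein that shuts off the mitotic exit signal in daughter cells, rose by 2.40. The members that fell included CHS2, for the chitin synthase of the primary septum, with 10.5, 18.4 and 18.6 CPM at 1 mM K, against 37.6, 36.4 and 40.5 CPM at 7 mM K (log2 fold change -1.28 ± 0.22, SE, edgeR adjusted p = 0.000649). They also included ALK1, for a haspin-like kinase, with 17.0, 19.3 and 15.4 CPM at 1 mM K, against 51.4, 88.1 and 61.8 CPM at 7 mM K (log2 fold change -1.96 ± 0.19, SE, edgeR adjusted p = 1.74e-05), and the bud site genes BUD4 (-1.55) and BUD3 (-1.06). In CHS2 and ALK1 the groups did not overlap.

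Genes for inositol and phospholipid synthesis rose. Most of these genes carry a promoter element read by the Ino2-Ino4 activator and repressed by Opi1 when inositol is plentiful. Of 31 tested members, 23 were higher and 4 lower (23 and 5 without replicate 2, 17 and 4 under WBGene scaling), with a median log2 fold change of 1.42. Without 1 mM K replicate 2 the lower count was 2. ITR1, the main inositol transporter gene, had 785, 831 and 929 CPM at 1 mM K, against 110.2, 177 and 114 CPM at 7 mM K (log2 fold change 2.67 ± 0.23, SE, edgeR adjusted p = 6.08e-06). CHO1, for phosphatidylserine synthase, had 207, 237 and 204 CPM at 1 mM K, against 80.9, 82.4 and 78.8 CPM at 7 mM K (log2 fold change 1.42 ± 0.12, SE, edgeR adjusted p = 5.23e-06). CHO2, for the first methyl transfer from phosphatidylethanolamine towards phosphatidylcholine, had 309, 331 and 309.8 CPM at 1 mM K, against 94.7, 71.1 and 98.7 CPM at 7 mM K (log2 fold change 1.84 ± 0.15, SE, edgeR adjusted p = 4.63e-06). In these 3 genes all libraries at 1 mM K lay above all libraries at 7 mM K, and the values within each group were close.

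PSD1, for the mitochondrial phosphatidylserine decarboxylase, rose by 1.97, PIS1, for phosphatidylinositol synthase, by 2.61, and OPI3, for the later methyl transfers, by 0.84 on the log2 scale. The fatty acid elongase genes ELO2 and ELO3 rose by 3.23 and 2.78. The fatty acid synthase genes FAS1 and FAS2 rose by 0.93 and 1.53. INO1, for the first step of inositol synthesis, had 304, 342 and 396 CPM at 1 mM K, against 27.5, 123 and 29.5 CPM at 7 mM K (log2 fold change 2.54 ± 0.49, SE, edgeR adjusted p = 0.00146), or 3.62 without replicate 2. PCT1, for the rate-limiting enzyme of the choline pathway (-0.59), and PSD2, the decarboxylase gene of the endosome and vacuole (-0.55), were among those that fell. OLE1 and GPT2 were also called lower, and the largest fall of the list was -1.91. HNM1, for the choline transporter rose by 1.91.

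The core of the inositol element, CATGTG, was present before 13.2% of all protein-coding genes, before 16 of the 31 members, before 13 of the 23 that rose and before 1 of the 4 that fell. CHO1 and OPI3, shown because they begin and end the route to phosphatidylcholine, hold 1 and 2 matches. Both are printed 5′ to 3′ on the minus strand, chrV:208575-208724 and chrX:573038-573187, with the 6 letters or their complement in capitals.
CHO1: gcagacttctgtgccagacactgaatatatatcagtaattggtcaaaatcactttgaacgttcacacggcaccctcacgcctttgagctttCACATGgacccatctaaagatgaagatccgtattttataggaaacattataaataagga
OPI3: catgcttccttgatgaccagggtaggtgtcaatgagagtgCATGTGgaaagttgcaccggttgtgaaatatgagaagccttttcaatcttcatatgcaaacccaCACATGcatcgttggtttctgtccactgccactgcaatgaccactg
Elements of this kind vary beyond the 6 letters searched, so the count covers only exact matches.

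Genes for the cytosolic ribosome rose together, and the libraries within each group differed more than for the wall genes. Of 134 tested ribosomal protein genes, 113 were higher and 0 lower, with a median log2 fold change of 1.36. Without replicate 2 the count was 122 higher and 0 lower, with a median of 0.96. The list took 7.50%, 7.01% and 4.31% of yeast counts in the 1 mM K libraries, against 3.84%, 0.841% and 3.70% in the 7 mM K libraries. The 2 groups did not overlap, but replicate 3 at 1 mM K lay near the upper 7 mM K libraries and replicate 2 at 7 mM K lay far below its partners. Under WBGene scaling, 29 members were higher and 0 lower.

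RPL9A, for a protein of the large subunit, had 571, 583 and 462 CPM at 1 mM K, against 51.5, 22.8 and 44.3 CPM at 7 mM K (log2 fold change 3.76 ± 0.27, SE, edgeR adjusted p = 1.97e-06), or 3.50 without replicate 2. RPL3, for a large-subunit protein with no second copy, had 2411, 2379.7 and 1732 CPM at 1 mM K, against 1234, 257 and 1124 CPM at 7 mM K (log2 fold change 1.32 ± 0.44, SE, edgeR adjusted p = 0.0276), or 0.89 without replicate 2. Without 1 mM K replicate 1 or 2 its call was lost, at 1.22 and 1.24. Many ribosomal proteins are encoded by near-identical gene pairs between which reads can be split in error, so values of single paralogs such as RPS7B (1.78) and RPS22A (3.07) are uncertain. Ribosomal RNA, which is made by another polymerase, took 2.29%, 2.62% and 2.46% of yeast counts at 1 mM K, against 1.45%, 1.23% and 1.24% at 7 mM K.

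**Figure D3:**
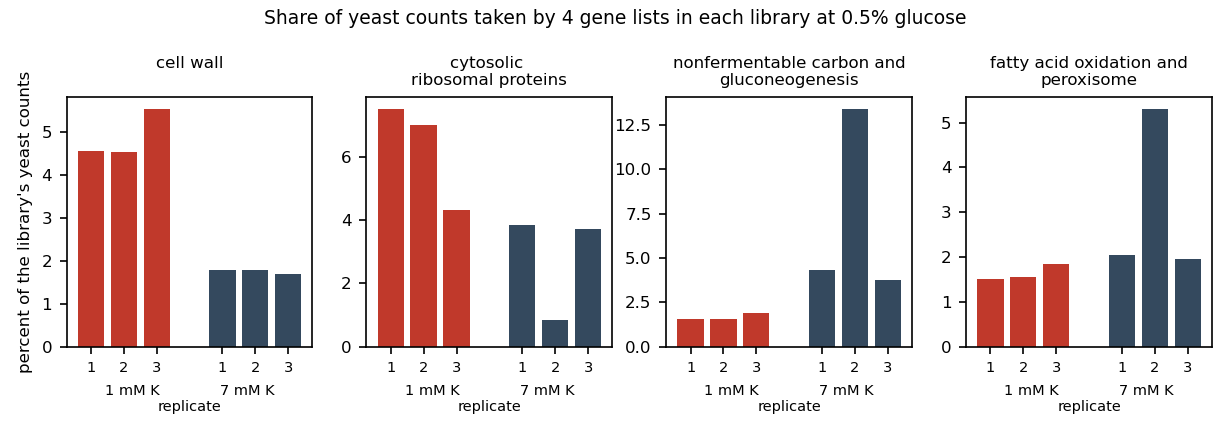
Share of yeast counts (y axis, percent) taken by the members of selected lists in each of the 3 libraries at 1 mM K (left of each pair) and the 3 libraries at 7 mM K (right). Ribosomal protein genes took 0.841% in 7 mM K replicate 2 and 3.70% to 7.50% in the other 5 libraries, and the nonfermentable carbon list took 13.4% in that library and 1.54% to 4.34% in the others.

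Factors that build the ribosome moved the same way. Of 130 ribosome biogenesis genes, 65 were higher and 1 lower (79 and 5 without replicate 2, with the median at 0.98 with it and 0.64 without it). Leaving out 1 mM K replicate 1 or 2 left 38 and 41 higher, and WBGene scaling 13. Fitting the 6 libraries at 0.5% glucose alone left 19 higher. NOP1, for the methyltransferase of the box C/D particles, had 264, 309 and 209 CPM at 1 mM K, against 33.5, 4.68 and 16.7 CPM at 7 mM K (log2 fold change 3.81 ± 0.52, SE, edgeR adjusted p = 0.000157). NOP16, for a factor of the large subunit, had 194, 188 and 204 CPM at 1 mM K, against 83.0, 71.9 and 75.5 CPM at 7 mM K (log2 fold change 1.35 ± 0.11, SE, edgeR adjusted p = 4.66e-06). For NOP1 the 7 mM K libraries differed widely from each other, whereas for NOP16 they were close. TSR3, for an enzyme that modifies 18S ribosomal RNA, was the member that fell (-0.36), a call lost without any of 4 libraries (1 mM K replicate 2 or 3, 7 mM K replicate 1, or replicate 3 at 2% glucose and 7 mM K), at -0.37 to -0.31.

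Of 28 genes for RNA polymerases I and III, 12 were higher and 2 lower (13 and 3 without replicate 2, 3 and 3 under WBGene scaling), or 7 higher without 1 mM K replicate 1. RPA43, a polymerase I subunit gene, rose by 2.08 ± 0.29 (SE), while RRN3, for the factor that recruits polymerase I, fell by 0.72 ± 0.18 (SE) on the log2 scale. Of 37 translation factor genes, 20 were higher and 0 lower (24 and 1 without replicate 2, 4 and 0 under WBGene scaling). TEF4, for an elongation factor subunit, had 444, 429 and 322 CPM at 1 mM K, against 76.1, 34.5 and 51.7 CPM at 7 mM K (log2 fold change 2.88 ± 0.30, SE, edgeR adjusted p = 2.47e-05). HCR1, for an initiation and recycling factor, had 123, 121 and 111 CPM at 1 mM K, against 64.8, 53.6 and 56.5 CPM at 7 mM K (log2 fold change 1.02 ± 0.13, SE, edgeR adjusted p = 0.000107). Genes for the mitochondrial ribosome had 14 of 76 members higher and 1 lower (18 and 7 without replicate 2, 2 and 4 under WBGene scaling), with MRP1 at 1.09 and MRP21, the member that fell, at -1.05. The count of higher members was 9 without 1 mM K replicate 2, and the median of 0.20 turned to -0.12 under WBGene scaling.

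In the list for sulfate assimilation and methionine, SAH1, SAM1 and SAM2 were among the genes that rose. Of 34 tested members, 16 were higher and 3 lower (17 and 4 without replicate 2, 10 and 6 under WBGene scaling), with a median of 0.55. SAH1, for the enzyme that clears S-adenosylhomocysteine after methyl transfer (chromosome V, 235770 to 237119), had 457, 444 and 283 CPM at 1 mM K, against 25.8, 6.63 and 14.2 CPM at 7 mM K (log2 fold change 4.65 ± 0.41, SE, edgeR adjusted p = 8.46e-06). SAM2 and SAM1, for the synthases of S-adenosylmethionine, had 223, 242 and 218 CPM at 1 mM K, against 18.2, 10.5 and 15.6 CPM at 7 mM K and 136, 140.1 and 107 CPM at 1 mM K, against 8.75, 14.2 and 8.49 CPM at 7 mM K. Their log2 fold changes were 3.94 ± 0.21 and 3.62 ± 0.27 (SE, n = 3 each). SAM1 and SAM2 are close copies that can share reads. In these 3 genes every library at 1 mM K was above every library at 7 mM K.

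MET17, for the enzyme that fixes sulfide into homocysteine, had 221, 200.0 and 156 CPM at 1 mM K, against 9.70, 41.1 and 7.80 CPM at 7 mM K (log2 fold change 3.32 ± 0.52, SE, edgeR adjusted p = 0.000388), or 4.46 without replicate 2, which was the highest library of its group. CYS3, for cysteine synthesis, rose by 2.75, and MUP3, for a low-affinity methionine permease, by 3.49. MET3, for the first step of sulfate activation, measured 0.062 (edgeR adjusted p = 0.851). SUL2, for a sulfate transporter, and MET28, for a regulator of these genes, were among the 3 that fell, at -1.0 and -1.15.

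Of 65 amino acid biosynthesis genes, 23 were higher and 8 lower (28 and 14 without replicate 2, 11 and 12 under WBGene scaling), with a median of 0.56. ARO7, for chorismate mutase in the synthesis of aromatic amino acids, had 37.0, 31.4 and 21.8 CPM at 1 mM K, against 3.42, 3.12 and 3.06 CPM at 7 mM K (log2 fold change 3.23 ± 0.26, SE, edgeR adjusted p = 4.62e-06). ARO2, for chorismate synthase, rose by 2.16, ASN2, for an asparagine synthetase, by 2.44, and GDH1, for the main ammonium-fixing glutamate dehydrogenase, by 2.22. LEU4, for the first step of leucine synthesis, had 641, 628 and 654 CPM at 1 mM K, against 2250.4, 3345 and 2097 CPM at 7 mM K (log2 fold change -2.0 ± 0.25, SE, edgeR adjusted p = 7.13e-05), and GLT1, for glutamate synthase, fell by 1.59 on the log2 scale. In LEU4 the groups did not overlap. In the purine list, 7 of 20 genes were higher and 5 lower (8 and 4 without replicate 2), with a median of 0.049 that changed sign in 5 of the other settings tried. IMD4, for the enzyme that commits purines to GTP, had 173, 185 and 114 CPM at 1 mM K, against 14.1, 7.80 and 6.96 CPM at 7 mM K (log2 fold change 4.02 ± 0.32, SE, edgeR adjusted p = 4.59e-06), within the limit that its close copies can share reads, and GUA1, the next enzyme on that route, rose by 2.46. The largest called rise of the list, 6.61, was that of another member. Genes for one-carbon transfer were among those that fell, with MTD1 at -0.90 and GCV1 at -0.81.

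Genes for protein folding rose with low potassium at 0.5% glucose. Heat shock factor Hsf1 drives many chaperone genes, and its activity was not tested here. Of 39 tested members, 20 were higher and 1 lower (23 and 1 without replicate 2, 14 and 4 under WBGene scaling), with a median of 0.93. SSA2, for a constitutive cytosolic HSP70, had 1246, 1224 and 1079 CPM at 1 mM K, against 164, 186 and 181 CPM at 7 mM K (log2 fold change 2.74 ± 0.19, SE, edgeR adjusted p = 1.54e-06), although its reads can be shared with SSA1. CPR6, for a cofactor of HSP90, had 756, 917 and 1786 CPM at 1 mM K, against 153, 180.3 and 206 CPM at 7 mM K (log2 fold change 2.68 ± 0.32, SE, edgeR adjusted p = 6.05e-05). BTN2, for a factor that gathers misfolded proteins, had 548, 691 and 1762 CPM at 1 mM K, against 121, 105 and 178 CPM at 7 mM K (log2 fold change 2.89 ± 0.48, SE, edgeR adjusted p = 0.000535). In CPR6 and BTN2, replicate 3 was the highest 1 mM K library, and all 3 lay above all 7 mM K libraries.

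The mitochondrial cochaperone genes MDJ1 and HSP10 rose by 2.02 and 1.61, and APJ1, for a cytosolic cochaperone, by 2.44. SSB1, ZUO1 and SSZ1 were also higher. The 18 members not called included SSA1, HSP26, HSP42, HSP82, HSC82 and HSP104. The member that fell was HSP32 (-1.74), one of a family of near-identical subtelomeric genes. SSA4, the strongly inducible HSP70 gene, had 343, 418 and 942 CPM at 1 mM K, against 389.7, 386 and 529.8 CPM at 7 mM K and did not pass the test (log2 fold change 0.38 ± 0.34, SE, edgeR adjusted p = 0.372). HSP30, for a membrane protein that restrains Pma1, had 4351, 4499 and 8110.3 CPM at 1 mM K, against 2195, 442 and 3557 CPM at 7 mM K and did not pass the test either (log2 fold change 1.45 ± 0.66, SE, edgeR adjusted p = 0.0863). Its groups did not overlap, and it passed without 7 mM K replicate 3, at 2.08.

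The full heat shock element searched, the units TTC, GAA and TTC with 2 free bases between neighbours, was found before 1.49% of all protein-coding genes and before 13 of the 39 chaperone genes, 8 of the 20 that rose and 5 of the 18 not called. BTN2 and HSP78 rose and hold a pair of overlapping matches each. BTN2 is shown 5′ to 3′ on the plus strand, chrVII:772044-772193, with the 18 bases of the overlapping pair in capitals.
BTN2: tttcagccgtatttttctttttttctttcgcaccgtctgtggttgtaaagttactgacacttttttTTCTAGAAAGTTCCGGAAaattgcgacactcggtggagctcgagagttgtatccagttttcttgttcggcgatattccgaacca
SSA4 had no match in its window.

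Other stress genes were mixed, with 22.2% of the general stress genes higher and 33.3% lower, against 23.5% and 24.9% of all genes tested. Of 45 general stress genes, 10 were higher and 15 lower (15 and 15 without replicate 2), with a median of -0.085, or 0.13 without replicate 2. GRE1, a hydrophilin-like gene induced by osmotic stress, was among the most abundant transcripts, with 19749, 24662 and 46617 CPM at 1 mM K, against 5923, 6034 and 5318 CPM at 7 mM K (log2 fold change 2.40 ± 0.32, SE, edgeR adjusted p = 0.000139). YGP1, for a secreted glycoprotein of starved cells, had 1004, 1286 and 2444 CPM at 1 mM K, against 303, 210.5 and 358 CPM at 7 mM K (log2 fold change 2.44 ± 0.35, SE, edgeR adjusted p = 0.000201). GPD1, for the enzyme that commits carbon to glycerol, had 211, 179.7 and 169 CPM at 1 mM K, against 661, 535 and 582 CPM at 7 mM K (log2 fold change -1.67 ± 0.18, SE, edgeR adjusted p = 2.62e-05), and OM14, for a protein of the outer mitochondrial membrane, fell by 1.80 on the log2 scale. The stress element CCCCT, which Msn2 and Msn4 bind, was present before 9 of the 10 higher and 13 of the 15 lower members, and before 34.1% of all protein-coding genes.

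Of 30 antioxidant genes, 10 were higher and 3 lower (16 and 3 without replicate 2, and 6 higher without either 1 mM K replicate 3 or 7 mM K replicate 3), with a median of 0.25 that turned to -0.10 under WBGene scaling. TRR1, for cytosolic thioredoxin reductase, had 343, 349 and 317 CPM at 1 mM K, against 53.0, 49.7 and 54.9 CPM at 7 mM K (log2 fold change 2.68 ± 0.13, SE, edgeR adjusted p = 1.39e-07). OYE2, for an NADPH oxidoreductase, had 239.5, 241 and 186 CPM at 1 mM K, against 24.9, 17.0 and 20.1 CPM at 7 mM K (log2 fold change 3.42 ± 0.18, SE, edgeR adjusted p = 2.53e-07). PRX1, for the mitochondrial peroxiredoxin, had 383, 378 and 453 CPM at 1 mM K, against 910.0, 966 and 923 CPM at 7 mM K (log2 fold change -1.20 ± 0.18, SE, edgeR adjusted p = 0.000284). In each of these 3 genes the values within a group were close and the groups did not overlap. Of 20 genes for trehalose and glycogen, 2 were higher and 7 lower (5 and 7 without replicate 2, 4 lower without 1 mM K replicate 2), with PIG1, for a regulator of glycogen synthase, at -2.21 and TPS3, for a subunit of trehalose synthase, at 0.75.

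Carbon metabolism moved the other way. Of 23 genes for glycolysis and fermentation, 2 were higher and 14 lower (3 and 17 without replicate 2), with a median log2 fold change of -0.80. ENO1 had 976, 1028 and 1219 CPM at 1 mM K, against 8155, 6945 and 8278 CPM at 7 mM K (log2 fold change -2.86 ± 0.25, SE, edgeR adjusted p = 7.26e-06), and TDH1 had 718, 760.4 and 881 CPM at 1 mM K, against 6896, 3989 and 8267 CPM at 7 mM K (log2 fold change -3.02 ± 0.32, SE, edgeR adjusted p = 2.58e-05). ENO1 encodes an enolase and TDH1 a glyceraldehyde-3-phosphate dehydrogenase, and both have close paralogs. PDC1, for the main pyruvate decarboxylase, had 3866, 3876 and 3625 CPM at 1 mM K, against 13818, 15573 and 15275 CPM at 7 mM K (log2 fold change -1.97 ± 0.23, SE, edgeR adjusted p = 4.88e-05). PDC6, for its minor isozyme, had 33.8, 27.1 and 21.2 CPM at 1 mM K, against 991, 193 and 858 CPM at 7 mM K (log2 fold change -4.63 ± 0.51, SE, edgeR adjusted p = 3.65e-05), or -5.06 without replicate 2. In all 4 genes the libraries at 1 mM K were below the libraries at 7 mM K.

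ADH1, for the main fermentative alcohol dehydrogenase, was one of the 2 that rose, with 3509.6, 3556 and 3102 CPM at 1 mM K, against 2133, 2321 and 2015 CPM at 7 mM K (log2 fold change 0.65 ± 0.21, SE, edgeR adjusted p = 0.0253), a call lost without 1 mM K replicate 1 or 2 or 7 mM K replicate 1 or 3 (0.57 to 0.60). The other was PFK27 (0.99), for a kinase that makes the activator of phosphofructokinase.

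Genes used on ethanol and acetate fell, and the size of the change depended on replicate 2. Of 31 tested members of the list for nonfermentable carbon and gluconeogenesis, 2 were higher and 19 lower, with a median log2 fold change of -2.13. Without replicate 2, 8 were higher and 18 lower, with a median of -0.72. The list took 1.54%, 1.58% and 1.93% of yeast counts at 1 mM K, against 4.34%, 13.4% and 3.79% at 7 mM K. The 2 groups did not overlap, with or without that library.

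Genes of the glyoxylate cycle, which lets cells build sugar from acetate, fell with and without replicate 2. MLS1, for malate synthase (chromosome XIV, 406358 to 408022), had 138, 135 and 143 CPM at 1 mM K, against 1805, 1291 and 1816 CPM at 7 mM K. Its log2 fold change was -3.56 ± 0.24 (SE, edgeR adjusted p = 1.22e-06), and -3.70 without replicate 2. ICL1, for isocitrate lyase, had 384, 389 and 292 CPM at 1 mM K, against 2593, 270.3 and 1802 CPM at 7 mM K (log2 fold change -2.13 ± 0.57, SE, edgeR adjusted p = 0.00946), and CIT2, for the peroxisomal citrate synthase, had 743, 741 and 797 CPM at 1 mM K, against 10167, 1316 and 9919 CPM at 7 mM K (log2 fold change -3.23 ± 0.57, SE, edgeR adjusted p = 0.000841). In MLS1 and CIT2 the groups did not overlap, whereas in ICL1 replicate 2 lay below the 1 mM K libraries, and the log2 fold changes without it were -2.62 for ICL1 and -3.71 for CIT2. REG2, for a phosphatase regulator of glucose repression, had 30.8, 38.0 and 49.9 CPM at 1 mM K, against 393, 296 and 355 CPM at 7 mM K (log2 fold change -3.14 ± 0.20, SE, edgeR adjusted p = 8.68e-07). SFC1, for the mitochondrial succinate-fumarate carrier, and ACH1, for a mitochondrial CoA transferase, fell by 3.27 and 3.61, and by 3.69 and 4.09 without replicate 2.

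For other members the high level at 7 mM K was that of 1 library. ADH2, for the alcohol dehydrogenase that oxidises ethanol, had 637, 727 and 1611 CPM at 1 mM K, against 2184, 30994 and 724 CPM at 7 mM K. Its log2 fold change was -3.51 ± 1.05 (SE, edgeR adjusted p = 0.0167), but -0.54 without replicate 2 (edgeR adjusted p = 0.308), and the call was also lost without 1 mM K replicate 1 or 2 (-3.36 and -3.41). ADY2, for an acetate transporter, had 692, 971 and 2099.5 CPM at 1 mM K, against 2651, 30965 and 1532 CPM at 7 mM K (log2 fold change -3.22 ± 0.93, SE, edgeR adjusted p = 0.014), or -0.72 without replicate 2 (edgeR adjusted p = 0.117), with the call also lost without 1 mM K replicate 1 or 2 (-3.01 and -3.15). In both genes the groups overlapped, and replicate 2 stood far above the other 5 libraries. FDH1, for formate dehydrogenase, had 144, 239 and 726 CPM at 1 mM K, against 20.5, 384 and 24.5 CPM at 7 mM K, a log2 fold change of 1.38 that did not pass the test, and a called rise of 4.05 without replicate 2. ALD3, for a stress-induced aldehyde dehydrogenase, and ADR1, for an activator of these genes, were the 2 members that rose, at 1.27 and 0.65 (1.94 and 0.68 without replicate 2), and the call of ALD3 was lost without 1 mM K replicate 3 or 7 mM K replicate 1 or 3 (0.91 to 1.03). That of ADR1 was lost without any of 8 libraries (0.32 to 0.65), among them 1 mM K replicate 3, 7 mM K replicates 1 and 3 and 5 of the 6 libraries at 2% glucose.

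**Figure D4:**
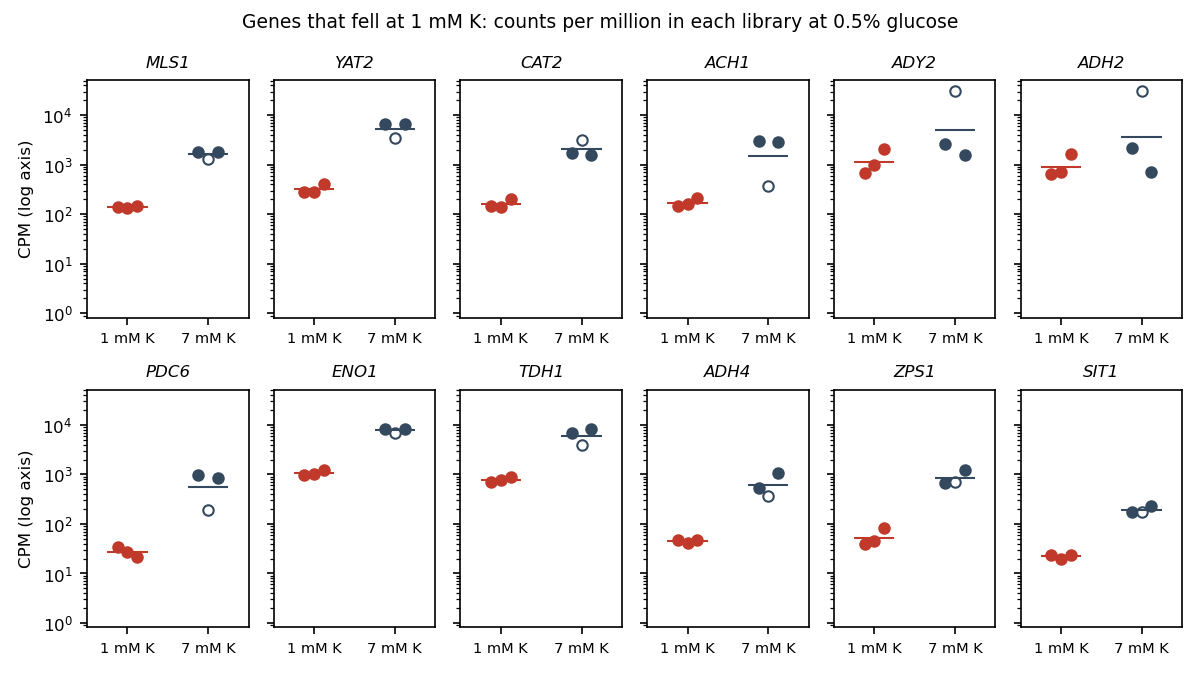
Expression (y axis, CPM on a log scale) of genes that were lower at 1 mM K, or whose call rested on 7 mM K replicate 2 (x axis, genes), with 1 point for each library at 1 mM K (left) and at 7 mM K (right) of each gene, open points for 7 mM K replicate 2 and bars for geometric means. MLS1 and ZPS1 separate the groups in every library, whereas in ADH2 and ADY2 7 mM K replicate 2, at 30994 and 30965 CPM, stands far above the other 5 libraries.

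The carbon source response element, which the activators Cat8 and Sip4 bind, was found before 27 of all 5987 protein-coding genes (0.451%). In this list it was found before 5 of the 31 members, ACS1, ICL1, MDH2, MLS1 and SIP4, all of which are among the 19 that fell (26.3%). Among all genes tested, it was found before 10 of 1458 lower genes (0.686%), 0.382% of the higher genes and 0.38% of those not called. The elements of MLS1 and ICL1, the 2 enzymes of the glyoxylate bypass, are printed 5′ to 3′ with the 11 bases of the element in capitals, MLS1 on the plus strand, chrXIV:405858-406007, and ICL1 on the minus strand, chrV:287233-287382.
MLS1: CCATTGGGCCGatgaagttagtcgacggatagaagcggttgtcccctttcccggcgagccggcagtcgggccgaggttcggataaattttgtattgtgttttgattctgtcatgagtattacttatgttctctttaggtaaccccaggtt
ICL1: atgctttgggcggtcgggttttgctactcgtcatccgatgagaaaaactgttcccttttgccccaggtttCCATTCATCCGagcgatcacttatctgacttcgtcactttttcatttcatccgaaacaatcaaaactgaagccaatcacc
SIP4, the activator gene itself, fell by 2.79 on the log2 scale, and by 3.06 without replicate 2.

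In the tricarboxylic acid cycle, 0 of 20 genes were higher and 11 lower (0 and 13 without replicate 2), with a median of -0.61. CIT1, for the mitochondrial citrate synthase, had 629, 655 and 720.3 CPM at 1 mM K, against 2405, 1478 and 2302 CPM at 7 mM K (log2 fold change -1.63 ± 0.24, SE, edgeR adjusted p = 0.000252). SDH1, for the flavoprotein subunit of succinate dehydrogenase, had 273, 286 and 394 CPM at 1 mM K, against 898, 815 and 806 CPM at 7 mM K (log2 fold change -1.40 ± 0.20, SE, edgeR adjusted p = 0.000194). Both genes were lower in every library at 1 mM K. Of 38 nuclear genes for the respiratory chain and ATP synthase, 3 were higher and 14 lower (3 and 20 without replicate 2). NDE2 and NDI1, for the external and internal NADH dehydrogenases, fell by 2.15 and 0.92. CYC7, for the minor isoform of cytochrome c, rose by 1.22, and CYC1, for the major one, measured 0.22 (edgeR adjusted p = 0.593).

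Fatty acid oxidation and the peroxisome showed one pattern with replicate 2 and another without it. Of 38 tested genes, 3 were higher and 16 lower, with a median of -0.84. Without replicate 2, 14 were higher and 13 lower, with a median of 0.036, and without 1 mM K replicate 2 the lower count was 10. The 3 higher members became 0 or 1 without 1 mM K replicate 2 or 3 or 7 mM K replicate 1 or 3. The carnitine genes fell in either case. YAT2, for a carnitine acetyltransferase, had 286, 282 and 399 CPM at 1 mM K, against 6500.3, 3479 and 6521 CPM at 7 mM K (log2 fold change -4.09 ± 0.31, SE, edgeR adjusted p = 2.76e-06), and CAT2, for the main carnitine acetyltransferase of peroxisomes and mitochondria, had 144, 142 and 202 CPM at 1 mM K, against 1739.6, 3097 and 1563 CPM at 7 mM K (log2 fold change -3.71 ± 0.30, SE, edgeR adjusted p = 4.62e-06). Without replicate 2 the values were -4.32 and -3.33. CRC1, for the carnitine carrier, fell by 3.28 and 3.64.

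The enzymes of beta-oxidation itself did the opposite once replicate 2 was left out. POX1, for the first enzyme, had 466, 373 and 432 CPM at 1 mM K, against 299, 7376 and 303 CPM at 7 mM K. Its log2 fold change was -2.65 ± 0.97 (SE, edgeR adjusted p = 0.0397), and 0.51 without replicate 2 (edgeR adjusted p = 0.00495). The call of the fall was also lost without any library at 1 mM K or at 2% glucose (-2.80 to -2.64). FOX2 and POT1, for the later steps, had -1.48 and -0.85 with all libraries, neither of which passed, and called rises of 0.94 and 0.91 without replicate 2. FOX2 was called lower without 7 mM K replicate 1 or 3, at -2.03 and -2.06. CTA1, for the peroxisomal catalase, had 2590.0, 2824 and 4352 CPM at 1 mM K, against 632, 9764 and 614 CPM at 7 mM K, which gave -0.17 on the log2 scale (edgeR adjusted p = 0.874), and a called rise of 2.40 without it.

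Zinc genes fell. Zap1 switches on zinc uptake genes when zinc is scarce. Of 14 tested members, 2 were higher and 9 lower (2 and 8 without replicate 2), with a median log2 fold change of -1.12. ZPS1, for a wall-bound protein induced by zinc lack, had 39.1, 46.2 and 82.9 CPM at 1 mM K, against 671, 717 and 1204 CPM at 7 mM K (log2 fold change -3.95 ± 0.42, SE, edgeR adjusted p = 2.88e-05). ADH4, for an alcohol dehydrogenase used when zinc is scarce, had 47.0, 41.7 and 47.1 CPM at 1 mM K, against 539, 368 and 1082 CPM at 7 mM K (log2 fold change -3.87 ± 0.34, SE, edgeR adjusted p = 7.74e-06). ZRT1, for the high-affinity zinc transporter (chromosome VII, 20978 to 22108), had 456, 504 and 892 CPM at 1 mM K, against 1383, 3422 and 2358 CPM at 7 mM K (log2 fold change -1.95 ± 0.35, SE, edgeR adjusted p = 0.000897). In all 3 genes every library at 1 mM K was below every library at 7 mM K. ZAP1 itself had 114, 121 and 353 CPM at 1 mM K, against 271, 1121 and 443 CPM at 7 mM K (log2 fold change -1.64 ± 0.53, SE, edgeR adjusted p = 0.0228), with overlapping groups. Its call was lost without replicate 2 (-0.85, edgeR adjusted p = 0.112) and without 1 mM K replicate 1 or 2 (-1.43 and -1.45). The members that rose were IZH2, for a membrane protein of zinc balance, at 0.83 and ZRC1, for the vacuolar zinc transporter, at 0.49, and the call of ZRC1 was lost without 1 mM K replicate 3 or 7 mM K replicate 1 (0.37 and 0.39).

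The Zap1 element, ACCTT and AAGGT with 1 free base between them, was found before 9 of all 5987 protein-coding genes (0.15%), 2 of them in the zinc list, ZRT1 and ZRG17, and both fell. The element before ZRT1 is printed 5′ to 3′ on the plus strand, chrVII:20704-20853, in capitals.
ZRT1: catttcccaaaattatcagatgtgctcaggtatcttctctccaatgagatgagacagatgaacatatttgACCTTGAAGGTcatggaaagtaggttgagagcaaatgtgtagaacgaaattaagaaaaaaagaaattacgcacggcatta
ZPS1 and ADH4 had no exact match in their windows. In the iron list, 3 of 31 genes were higher and 12 lower (5 and 12 without replicate 2). SIT1, for a siderophore transporter, had 24.1, 19.4 and 23.4 CPM at 1 mM K, against 174, 177 and 231 CPM at 7 mM K (log2 fold change -3.12 ± 0.28, SE, edgeR adjusted p = 9.56e-06). SMF3, for a vacuolar iron exporter, fell by 0.90 and ISU2, for a scaffold of iron-sulfur clusters, rose by 2.09.

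Of the transporters that carry potassium itself, TRK1, for the high-affinity uptake system (chromosome X, 173599 to 177306), had 89.0, 90.9 and 84.5 CPM at 1 mM K, against 135, 93.9 and 142 CPM at 7 mM K. Its log2 fold change was -0.49 ± 0.16 (SE, edgeR adjusted p = 0.0249), a fall of small size that was lost without 7 mM K replicate 3 (-0.41). TRK2, for the second uptake system, had 119, 119 and 261 CPM at 1 mM K, against 135, 356 and 133 CPM at 7 mM K (log2 fold change -0.32 ± 0.39, SE, edgeR adjusted p = 0.515), or 0.33 without replicate 2, and TOK1, for the outward channel, had 139, 135 and 142 CPM at 1 mM K, against 142, 154 and 156 CPM at 7 mM K (log2 fold change -0.12 ± 0.11, SE, edgeR adjusted p = 0.377). Neither passed the test. In the list of potassium and sodium transport as a whole, 4 of 13 tested genes were higher and 6 lower (4 and 5 without replicate 2).

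PMA1, for the proton pump of the plasma membrane (chromosome VII, 479910 to 482666), had 1713, 1780.3 and 1284 CPM at 1 mM K, against 161, 94.7 and 99.8 CPM at 7 mM K. Its log2 fold change was 3.75 ± 0.30 (SE, edgeR adjusted p = 4.59e-06), and 3.62 without replicate 2. PMA2, for the minor isoform of the pump, went the other way, with 72.6, 97.9 and 163 CPM at 1 mM K, against 837, 828 and 601 CPM at 7 mM K (log2 fold change -2.76 ± 0.29, SE, edgeR adjusted p = 2.48e-05). The 2 isoforms have similar sequences, yet their counts separated the groups in opposite directions in all 6 libraries. QDR2, for an exporter of drugs and cations, rose by 1.83, and NHA1, for the sodium-proton antiporter of the plasma membrane, had 379, 408 and 675 CPM at 1 mM K, against 211, 174 and 224 CPM at 7 mM K (log2 fold change 1.26 ± 0.24, SE, edgeR adjusted p = 0.00116).

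Among the sodium pumps, ENA2 had 0, 1.96 and 0 CPM at 1 mM K, against 50.8, 30.4 and 26.0 CPM at 7 mM K (log2 fold change -5.76 ± 0.88, SE, edgeR adjusted p = 0.000313). ENA1 had 550.1, 501 and 677 CPM at 1 mM K, against 1258, 629.5 and 1253 CPM at 7 mM K (log2 fold change -0.86 ± 0.28, SE, edgeR adjusted p = 0.0229), with overlapping groups and a call lost without 1 mM K replicate 2 or 7 mM K replicate 3 (-0.80 and -0.74). ENA1, ENA2 and ENA5 are near-identical tandem copies, so the split of reads among them, and with it the size of the ENA2 change, is uncertain. Of 24 regulators of potassium transport and calcineurin genes, 5 were higher and 8 lower (7 and 7 without replicate 2), with a median of 0.18 that turned to -0.13 under WBGene scaling. SAT4, for a kinase that stabilises the Trk transporters, had 427, 532 and 986 CPM at 1 mM K, against 199.8, 133 and 190.2 CPM at 7 mM K (log2 fold change 1.89 ± 0.31, SE, edgeR adjusted p = 0.000482), and SKY1, for another kinase that acts on cation balance, rose by 1.03. CMK1, for a calmodulin-dependent kinase, and PTK2, for a kinase that activates Pma1, fell by 1.22 and 1.02.

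Genes of the phosphate response, which Pho4 switches on when phosphate is short, moved in both directions. Of the list, 33.3% were higher and 23.3% lower, against 23.5% and 24.9% of all genes tested. Of 30 tested members, 10 were higher and 7 lower (12 and 8 without replicate 2, with 4 lower without 1 mM K replicate 2), and the median of 0.19 turned to -0.10 under WBGene scaling. PHO5, for the secreted acid phosphatase, had 231, 255 and 142 CPM at 1 mM K, against 42.1, 41.1 and 36.3 CPM at 7 mM K (log2 fold change 2.39 ± 0.23, SE, edgeR adjusted p = 1.56e-05), although its reads can be shared with PHO3. VTC1, for a subunit of the polyphosphate polymerase, had 147, 157 and 139 CPM at 1 mM K, against 50.0, 29.4 and 34.5 CPM at 7 mM K (log2 fold change 1.95 ± 0.18, SE, edgeR adjusted p = 8.81e-06). PHO81, for the inhibitor that relays phosphate lack, fell by 0.77. PHO84, the high-affinity phosphate transporter gene, had 565, 585 and 369.7 CPM at 1 mM K, against 295, 24.6 and 159.7 CPM at 7 mM K (log2 fold change 1.66 ± 0.64, SE, edgeR adjusted p = 0.0485), a call lost without any of 9 libraries (1.54 to 1.85), namely the 3 at 1 mM K, 7 mM K replicate 3 and 5 at 2% glucose. PHO89, for the sodium-coupled transporter, had 447, 513 and 871 CPM at 1 mM K, against 678, 54.6 and 357 CPM at 7 mM K and did not pass (edgeR adjusted p = 0.331). The Pho4 core CACGTG was present before 6.23% of all protein-coding genes, 16 of the 30 members, 7 of the 10 that rose and 3 of the 7 that fell.

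TPO2, for a polyamine exporter, had 129, 147 and 118 CPM at 1 mM K, against 23.5, 14.8 and 19.9 CPM at 7 mM K (log2 fold change 2.75 ± 0.28, SE, edgeR adjusted p = 2.12e-05), and of 13 polyamine genes 4 were higher and 1 lower (5 and 2 without replicate 2, 2 and 1 under WBGene scaling). The median of 0.14 turned to -0.23 under that scaling. The 1 lower member was SAM3, for an S-adenosylmethionine permease (-0.96). The polyamine synthesis genes SPE3 and SPE4 rose by 0.75 and 1.57. Of 18 vacuolar proton pump genes, 6 were higher and 1 lower (7 and 1 without replicate 2, 1 and 1 under WBGene scaling), or 3 higher without 1 mM K replicate 1 or 2. VMA4, a subunit of its catalytic part, rose by 0.81, and STV1, for the isoform of the Golgi and endosome, was the member that fell (-0.81).

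Of 28 hexose transport and glucose sensing genes, 10 were higher and 10 lower (12 and 8 without replicate 2, 7 and 12 under WBGene scaling). HXT3, for a low-affinity glucose transporter, had 388, 405 and 332 CPM at 1 mM K, against 96.2, 64.5 and 64.9 CPM at 7 mM K (log2 fold change 2.32 ± 0.19, SE, edgeR adjusted p = 5.83e-06). HXT4, for a transporter used at low glucose, had 208, 235 and 189 CPM at 1 mM K, against 20.4, 34.1 and 5.99 CPM at 7 mM K (log2 fold change 3.40 ± 0.49, SE, edgeR adjusted p = 0.0002), or 4.0 without replicate 2, and HXT7, for a high-affinity one, had 975, 939 and 1070.4 CPM at 1 mM K, against 290.0, 295 and 288 CPM at 7 mM K (log2 fold change 1.77 ± 0.34, SE, edgeR adjusted p = 0.00135). All 3 were higher in every library at 1 mM K, and HXT7 can share reads with its near-identical neighbour HXT6. SUC2, for invertase, which glucose represses, rose by 2.11. The glucose sensor genes SNF3 and RGT2 fell by 0.76 and 0.73, as did HXT10 (-1.45) and HXT15 (-1.49), of which the last has near-identical copies.

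Autophagy genes fell more often than they rose. Of 41 tested members, 1 was higher and 16 lower (4 and 14 without replicate 2), with a median of -0.36. ATG7, for the enzyme that activates the ubiquitin-like proteins of the pathway, had 41.2, 36.9 and 42.3 CPM at 1 mM K, against 135, 90.6 and 116 CPM at 7 mM K (log2 fold change -1.50 ± 0.16, SE, edgeR adjusted p = 2.48e-05), and VPS15, for a subunit of the lipid kinase complex, fell by 1.57. The 1 member that rose was ATG8, for the protein that coats the autophagosome, with 629.6, 758 and 1029 CPM at 1 mM K, against 148, 312 and 171 CPM at 7 mM K (log2 fold change 1.93 ± 0.29, SE, edgeR adjusted p = 0.000291). ATG1, for the kinase that starts the process, measured 0.12 (edgeR adjusted p = 0.703), and was called higher without replicate 2 (0.46). In ATG7 and ATG8 the groups did not overlap, in opposite directions.

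Of 44 nutrient signalling and longevity genes, 6 were higher and 13 lower (8 and 14 without replicate 2, 2 and 21 under WBGene scaling). TOR2 and TOR1, for the kinases of the TOR complexes, fell by 0.82 ± 0.15 and 0.41 ± 0.13 (SE, n = 3 each). SNF1 and RIM15, for kinases of glucose-starved cells, fell by 0.92 and 0.93, and GCN2, for the kinase that senses amino acid lack, by 0.99. Replicate 2 was the highest library for SNF1, whose change was -0.58 without it. RAS2, for the GTPase that activates protein kinase A, rose by 0.65, and HST1, for a sirtuin, had 197, 207 and 339.8 CPM at 1 mM K, against 127, 136 and 120.0 CPM at 7 mM K (log2 fold change 0.96 ± 0.19, SE, edgeR adjusted p = 0.0017). In HST1 the groups did not overlap.

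Among 30 nitrogen catabolite genes, 3 were higher and 8 lower (5 and 13 without replicate 2, and 5 lower without 1 mM K replicate 2, with 1 higher without any 1 of 4 libraries). MEP2, for the high-affinity ammonium transporter, had 22.4, 25.3 and 27.2 CPM at 1 mM K, against 66.8, 48.5 and 51.4 CPM at 7 mM K (log2 fold change -1.16 ± 0.15, SE, edgeR adjusted p = 0.000123), and PUT4, for the proline permease, had 88.8, 90.9 and 143 CPM at 1 mM K, against 572, 926 and 305 CPM at 7 mM K (log2 fold change -2.48 ± 0.37, SE, edgeR adjusted p = 0.000269). Of 26 amino acid permease genes, 4 were higher and 8 lower (6 and 12 without replicate 2, and 2 higher without any 1 of 7 libraries), with DIP5, for the glutamate and aspartate permease, at -1.54 and BAP2, for a branched-chain permease, at -1.19. Of 35 ergosterol genes, 10 were higher and 8 lower (13 and 10 without replicate 2), with a median of 0.12 that turned to -0.22 under WBGene scaling. These shares, 28.6% and 22.9%, were near the 23.5% and 24.9% of all genes tested. ERG4, for the last step, had 273, 266 and 177 CPM at 1 mM K, against 25.3, 12.9 and 24.5 CPM at 7 mM K (log2 fold change 3.51 ± 0.26, SE, edgeR adjusted p = 2.58e-06), and ERG24, for a middle step, fell by 1.08. Of 37 proteasome genes, 5 were higher and 2 lower (7 and 4 without replicate 2, 1 and 6 under WBGene scaling), or 3 higher without 1 mM K replicate 2, 7 mM K replicate 1 or 7 mM K replicate 3, with PRE5, for a subunit of its core, at 0.73.

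Genes that mark the mating type were examined as a check on the cells. All 5 tested alpha-specific genes were higher and 1 of the 4 tested a-specific genes was higher and 1 lower (5 alpha-specific genes higher, and 1 a-specific gene higher and 2 lower, without replicate 2). MF(ALPHA)1, for the alpha pheromone precursor, had 371, 348 and 267 CPM at 1 mM K, against 23.1, 5.26 and 31.2 CPM at 7 mM K (log2 fold change 4.03 ± 0.46, SE, edgeR adjusted p = 4.64e-05), and SAG1, for alpha agglutinin, had 387, 442 and 495 CPM at 1 mM K, against 113, 175 and 112 CPM at 7 mM K (log2 fold change 1.73 ± 0.20, SE, edgeR adjusted p = 4.07e-05). STE3, for the receptor of a-factor, rose by 1.30, or 0.92 without replicate 2. The a-specific genes STE6 and ASG7 measured -1.16 and 2.28, ASG7 at 0.278 to 2.14 CPM in the 6 libraries, and STE2, for the receptor of alpha-factor, did not pass (edgeR adjusted p = 0.289). Of 21 genes of the mating pathway, 5 were higher and 5 lower (5 and 6 without replicate 2, 2 and 7 under WBGene scaling). Each share was 23.8%, near the 23.5% and 24.9% of all genes tested. Of 36 meiosis and sporulation genes, which haploid cells do not use as a programme, 3 were higher and 15 lower (4 and 13 without replicate 2), with REC8, for the meiotic cohesin, at -2.26 and DIT1, for an enzyme of the spore wall, at 2.32.

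Transcripts encoded in the mitochondria were few in these libraries, at 0.008%, 0.012% and 0.023% of yeast counts at 1 mM K, against 0.001%, 0.004% and 0.002% at 7 mM K. Of the 21 listed members, 10 had too few counts to be tested. All 11 tested members were higher, with a median of 2.91 (12 of 12, with a median of 3.74, without replicate 2). At such low counts a gene can pass the count filter through the group where it is high. The share of tested members that were higher is therefore not independent of the filter. COB, for cytochrome b, had 10.6, 8.91 and 19.4 CPM at 1 mM K, against 1.23, 2.73 and 2.23 CPM at 7 mM K (log2 fold change 2.66 ± 0.45, SE, edgeR adjusted p = 0.00064). BI4, an intron-encoded maturase of the same locus, had 23.3, 35.1 and 69.5 CPM at 1 mM K, against 2.46, 11.1 and 3.90 CPM at 7 mM K (log2 fold change 2.91 ± 0.56, SE, edgeR adjusted p = 0.00134), or 3.75 without replicate 2. In each, replicate 3 at 1 mM K was the highest library. The external spacer of the ribosomal RNA precursor, ETS1-1, had 570.3, 1185 and 3929 CPM at 1 mM K, against 127, 477 and 114 CPM at 7 mM K (log2 fold change 2.99 ± 0.69, SE, edgeR adjusted p = 0.00431), or 3.99 without replicate 2, with the same library highest, and its copies can share reads, whereas mature 18S RNA, RDN18-1, had 2952, 3650.4 and 4253 CPM at 1 mM K, against 1836, 1928 and 1719.6 CPM at 7 mM K (log2 fold change 0.99 ± 0.29, SE, edgeR adjusted p = 0.0147). These RNAs lack stable poly(A) tails, so their share also depends on how RNA was selected for the libraries, which was not tested.

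The same change in potassium was measured at 2% glucose in 6 other libraries, which share no library with the comparison at 0.5%. There, 803 genes were higher (13.1%) and 916 lower (15%), 1719 in all (28.1% of 6127), against 2966 (48.4%) at 0.5% glucose. Over the 6127 genes, which are not independent, the 2 sets of log2 fold changes correlated at r = 0.314 (rho = 0.30), or 0.241 without replicate 2. Of the called genes, 382 were higher at both glucose levels, 357 were lower at both and 244 were called in opposite directions. The difference between the 2 effects was tested for each gene as an interaction term: 904 genes (14.8%) had a higher effect of low potassium at 0.5% glucose than at 2%, and 931 (15.2%) a lower one, 29.9% of genes in all. Without replicate 2 these were 1475 (23.9%) and 1452 (23.6%), 47.5% in all, and 1832 of the 1835 genes called were also called in that fit. Scaling moved the split: 49.3% of the called genes had the higher effect with TMM, 33.0% with upper-quartile scaling, 30.5% with library totals and 17.2% with WBGene scaling.

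**Figure D5:**
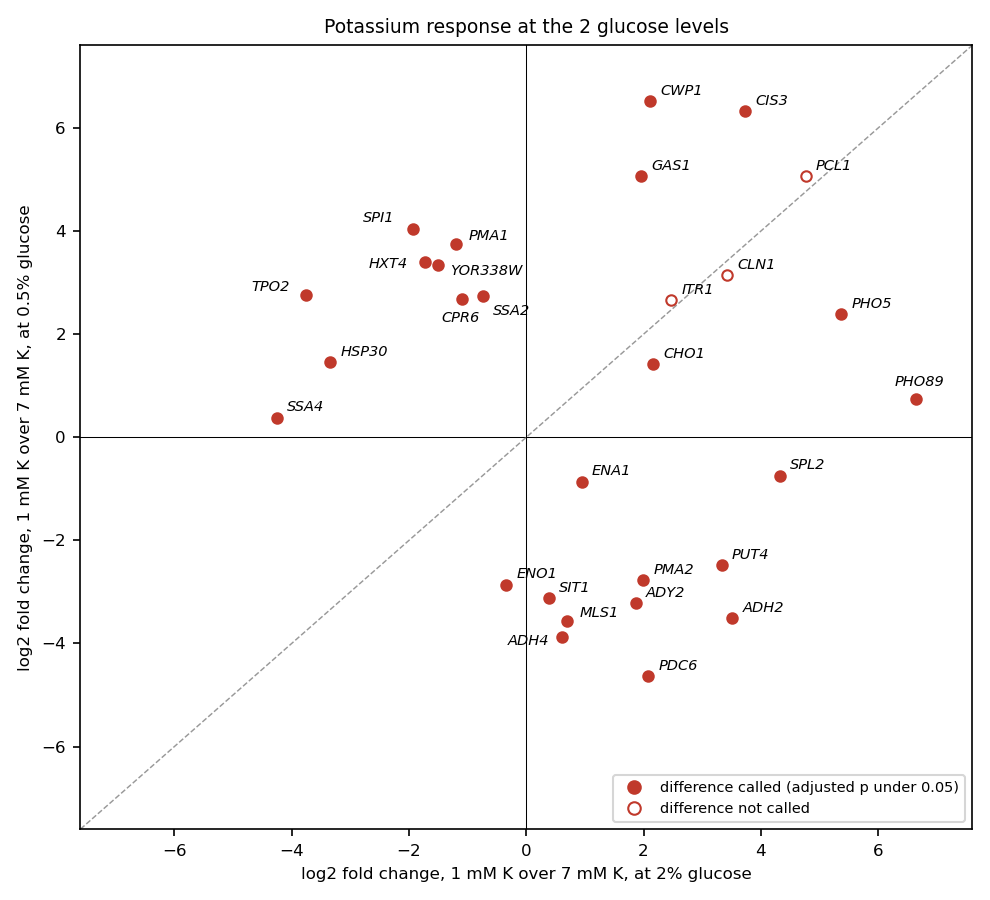
Log2 fold change of low potassium at 0.5% glucose (y axis) against that at 2% glucose (x axis) for selected named genes (points), filled where the interaction passed the test and open where it did not, with a dashed line where both effects would be equal. PMA1, TPO2 and SPI1 lie above 2 on the y axis and below -1 on the x axis, whereas PCL1 lies near 5 on both.

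The cyclin genes PCL1 and CLN1 rose at both glucose levels. They had effects of 5.06 and 3.14 at 0.5% glucose and of 4.76 and 3.42 at 2%, and neither passed the interaction test (0.30 ± 0.41 and -0.28 ± 0.28 SE, edgeR adjusted p = 0.619 and 0.472). A missed threshold does not show that the effects are equal. The inositol and phospholipid genes had medians of 1.42 at 0.5% and 1.53 at 2% glucose, and 3 of 31 had a higher and 7 a lower effect at 0.5% (4 and 10 without replicate 2, 1 and 10 under WBGene scaling). CHO1, at 1.42 and 2.16, was one of those with a lower effect (interaction -0.74 ± 0.16 SE, edgeR adjusted p = 0.00597). Of the 58 G1 and S phase genes, 7 had a higher and 13 a lower effect at 0.5% glucose (11 and 16 without replicate 2, 1 and 17 under WBGene scaling).

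Of the 41 cell wall genes, 19 were higher, 5 lower and 17 not called at 2% glucose, against 27, 4 and 10 at 0.5%. Their medians were 1.86 at 0.5% and 0.80 at 2%. The interaction was higher in 21 and lower in 2 (29 and 2 without replicate 2, 15 and 4 under WBGene scaling). CWP1 rose by 6.52 at 0.5% glucose and by 2.10 at 2% (interaction 4.42 ± 0.34 SE, edgeR adjusted p = 1.5e-05). GAS1 rose by 5.07 and 1.95 (interaction 3.12 ± 0.34 SE, edgeR adjusted p = 9.77e-05). SED1, for an abundant wall protein of starved cells, rose at 0.5% glucose, with 14677, 16330.3 and 37692 CPM at 1 mM K, against 4742, 7706 and 4334 CPM at 7 mM K (log2 fold change 2.03 ± 0.40, SE, edgeR adjusted p = 0.00163), and measured -0.79 at 2% (interaction 2.82, edgeR adjusted p = 0.00312).

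In the chaperone list the effect had opposite medians, 0.93 at 0.5% and -0.74 at 2% glucose, where 3 were higher and 18 lower. The interaction was higher in 27 of 39 genes and lower in 1 (31 and 1 without replicate 2, 19 and 1 under WBGene scaling). SSA2 had 2.74 at 0.5% and -0.74 at 2% (interaction 3.48 ± 0.26 SE, edgeR adjusted p = 1.09e-05). SSA4 had 0.38 at 0.5% and -4.26 at 2% (interaction 4.64 ± 0.51 SE, edgeR adjusted p = 9.63e-05). The amino acid list had 28 of 65 genes with a higher interaction and 4 with a lower one (40 and 8 without replicate 2), a balance that turned to 6 and 9 under WBGene scaling. The sulfate and methionine list had 19 and 0 of 34 (22 and 2 without replicate 2, 9 and 2 under WBGene scaling). PMA1 rose by 3.75 at 0.5% glucose and fell by 1.19 at 2% (interaction 4.94 ± 0.40 SE, edgeR adjusted p = 1.57e-05). TPO2 had 2.75 and -3.76 (interaction 6.51 ± 0.40 SE, edgeR adjusted p = 6.52e-06).

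In the nonfermentable carbon list the medians were -2.13 at 0.5% and 0.84 at 2% glucose, with 10 higher and 2 lower at 2%. The interaction was higher in 0 of 31 genes and lower in 21, with a median of -3.06 (2 and 22, with a median of -2.24, without replicate 2). MLS1 had -3.56 at 0.5% and 0.70 at 2% (interaction -4.26 ± 0.31 SE, edgeR adjusted p = 1.09e-05). ENA2 had -5.76 and 1.82 (interaction -7.58 ± 1.08 SE, edgeR adjusted p = 0.00047), within the limit on near-identical copies given above. PDC6 had -4.63 and 2.08 (interaction -6.71 ± 0.68 SE, edgeR adjusted p = 7.24e-05). The mitosis list had 5 of 43 genes with a higher and 18 with a lower interaction (8 and 21 without replicate 2), and the phosphate list 1 and 9 of 30 (2 and 12 without it). PHO5 rose at both levels, by 2.39 at 0.5% and 5.37 at 2% glucose (interaction -2.98 ± 0.32 SE, edgeR adjusted p = 8.96e-05).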

How the data were processed

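RNA was sequenced from 12 libraries of strain BY4742, and the 6 at 0.5% glucose are compared here. Per the labels' protocols, total RNA was sequenced in paired ends and aligned to genome build R64-1-1 with STAR in 2 passes. The submitters' processing notes name STAR 2.7.1a and RSEM 1.3.3. The deposited counts are whole numbers for 46904 entries, with no normalization by the authors that the values show. The role of RSEM, any rounding, and the handling of strand and of overlapping genes are not given in the sources used here, so overlapping and antisense genes are uncertain. Only the 7127 entries with yeast identifiers were used. The labels put all libraries in the same batch, so no batch could be tested.

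edgeR 4.0.16 (R 4.3.3) was fitted to all 12 libraries with TMM scaling, its default count filter, robust quasi-likelihood and 1 mean per group. The common biological coefficient of variation was 0.24. Calls were Benjamini-Hochberg adjusted p under 0.05. Alternatives used DESeq2 1.42.0 and limma 3.58.1. Scripts ran in Python 3.11.15 and were tested on simulated data. A depth of 5634205 to 7036345 counts per library leaves counting error small for abundant genes and large for those near 1 CPM. Promoter letters came from the RefSeq R64 assembly, matched by systematic name. The lists held 42 groups of genes. The members and lists were chosen with earlier results of these data known. Genes were named by rule: the 10 highest and 10 lowest changes among genes called with and without 7 mM K replicate 2, averaging 10 CPM or more and without overlap between the groups, the 3 smallest p-values of each list with up to 2 members moving against it, a fixed set of transport, stress and marker genes, and the 6 highest and 6 lowest interactions. The interactions were ranked among genes called with and without that same library and averaging 10 CPM or more over the 12 libraries. Other genes were named after their values were seen.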

Additional observations from a re-analysis of the deposited data

Results flagged for a closer look

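The genes in this section had an effect of low potassium at 0.5% glucose that differed from the effect at 2% glucose by the interaction test (edgeR's quasi-likelihood test, Benjamini-Hochberg adjusted p under 0.05 over all tested genes). The comparisons at the 2 glucose levels share no library. No cause of any difference was tested.

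The genes with a higher effect at 0.5% glucose included TPO2, for the polyamine exporter, with an interaction of 6.51 on the log2 scale. SPI1, for a wall protein of starved cells, had 2380.1, 3166 and 7617 CPM at 1 mM K, against 153, 505 and 139.5 CPM at 7 mM K, with effects of 4.05 at 0.5% and -1.93 at 2% glucose and an interaction of 5.97 ± 0.84 (SE, edgeR adjusted p = 0.000432). HXT4, for a glucose transporter, had effects of 3.40 and -1.73 and an interaction of 5.13. The proton pump gene PMA1 had an interaction of 4.94, and its inhibitor gene HSP30 one of 4.79, with effects of 1.45 at 0.5% and -3.34 at 2% glucose. SSA4, for the inducible HSP70, had an interaction of 4.64. YOR338W, for a protein of unassigned function, had effects of 3.34 and -1.51 and an interaction of 4.85. NHA1, for the sodium-proton antiporter, had an interaction of 2.26. HIS3, partly deleted in this strain, had effects of 1.24 and -2.22 and an interaction of 3.46. BI4, for the maturase encoded in the mitochondria, had an interaction of 5.05, in a group of transcripts that took at most 0.023% of yeast counts in the 6 libraries compared.

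The genes with a lower effect at 0.5% glucose included the sodium pump genes ENA2 (-7.58) and ENA1 (-1.81), whose near-identical copies can share reads. PDC6, for the minor pyruvate decarboxylase, had an interaction of -6.71. PUT4, for the proline permease, had effects of -2.48 at 0.5% and 3.33 at 2% glucose and an interaction of -5.81. In the phosphate response, PHO89 had effects of 0.75 and 6.64 and an interaction of -5.89. SPL2, for a regulator of the low-affinity phosphate transporter, had effects of -0.74 and 4.32 and an interaction of -5.07, and PHO5 had an interaction of -2.98. ADH2 and ADY2 had interactions of -7.02 and -5.09, and at 0.5% glucose both rest on the 7 mM K library with 30994 and 30965 CPM, without which their effects at that glucose level did not pass the test. Without that library every gene named above still passed the interaction test, with interactions of -4.06 for ADH2, -2.61 for ADY2, 5.86 for BI4, 6.83 for SPI1, -4.25 for SPL2 and 5.72 for HXT4, the 6 whose fold moved most. For the genes named as the 6 highest and 6 lowest interactions, passing without that library was a condition of being named.

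Counts at entries outside the comparisons were also found. The entries with WBGene identifiers took 33.97% of all counts in the library where their share was lowest, 7 mM K replicate 3 at 0.5% glucose, and 41.6% in the library where it was highest, 1 mM K replicate 2 at 0.5% glucose. What these counts stand for is not given in the sources used here.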

How the results depend on the processing

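The count of genes called for low potassium at 0.5% glucose, 2966, lay between 2539 and 4172 under 10 other settings: DESeq2 size factors, upper-quartile scaling, library totals, WBGene scaling (chosen after seeing the data), the DESeq2 Wald test, limma voom with and without quality weights, no filter, a stricter filter and the replicate block. It was 1409 when a change over 1.5-fold was tested and 1805 when the 6 libraries were fitted alone, which leaves fewer samples to estimate the spread. Leaving out single libraries gave 2430 to 3565. The count for the interaction, 1835, was 3733 with limma voom and quality weights and 896 for a change over 1.5-fold, and 1362 to 2927 on leaving out single libraries (2927 without 7 mM K replicate 2 at 0.5% glucose). The other 9 settings were within 1.5 times of it. The cause of these moves was not tested. No gene named by the rule changed direction past the threshold under the settings run. For potassium at 0.5% glucose, their values under other settings kept their side of the threshold in 4609 cases, lost it in 156 and gained it in 10, and for the interaction in 582 cases, with 16 gained. Parts of the rule required calls with and without 7 mM K replicate 2 or took the smallest p-values. These counts therefore favour stable calls and do not describe genes at large. POX1, which the rule did not name, did change direction without that library. The median of a list kept its sign under every setting in 27 of 42 lists for potassium at 0.5% glucose and in 23 of 42 for the interaction.

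Whether replicate numbers pair the libraries could not be decided. Same-numbered libraries at 0.5% glucose deviated together at r = 0.33, -0.26 and -0.37, and at 2% at r = 0.13, -0.049 and -0.018. Differently numbered libraries at 0.5% glucose gave r = -0.40 to 0.43. Deviations from a mean of 3 libraries depend on each other, and a library that stands apart, such as 7 mM K replicate 2, can set their pattern. With the replicate number as a block, 2742 genes were called for potassium and 1534 for the interaction. WBGene scaling gave a median of all genes of -0.34 for potassium and -0.63 for the interaction, library totals -0.10 and -0.34, and upper-quartile scaling -0.26 for the interaction. Genes near 1 CPM, such as ENA2 at 1 mM K, are limited by depth.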
